A study of Mus musculus with 6 samples.

Results

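The 3 SoxC transcription factor genes Sox4, Sox11 and Sox12 and 7 genes of growth-cone proteins, Marcks, Marcksl1, Gap43, Basp1, Stmn1, Stmn2 and Stmn3, were followed in retinas of DBA/2J mice, whose iris disease raises eye pressure as they age and leads to glaucoma. They are 10 of the 11219 genes that had a probe set bright enough to test. Collected for these genes were all probe sets whose single gene symbol in the platform annotation is 1 of those names, 36 of 45037 probe sets. A probe set is a group of short array probes read as 1 value. Of the 36, 24 were bright enough to test, and 12 lay below the filter described further on. The 12 comprised 7 of 8 for Sox4, 2 of 6 for Sox11, 1 of 3 for Sox12 and 2 of 7 for Marcks. The groups were 8-month-old females with raised intraocular pressure and 3-month-old females with normal pressure, 3 retinas each from 6 separate animals, all DBA/2J, untreated as far as the labels say. The last pressures measured were 25.3, 26.5 and 30.4 mmHg in 8-month retinas 1 to 3, against 19.1, 15.3 and 18.2 mmHg in 3-month retinas 1 to 3. Animals were picked by pressure, so age and pressure cannot be told apart, and no array of another strain was analysed here. Each array held RNA of a whole retina. Fewer cells of a type and less RNA per cell therefore cannot be told apart in any value below.

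SoxC factors are HMG-box transcription factors that drive young neurons to differentiate, and Sox4 and Sox11 are needed together to form retinal ganglion cells, the neurons whose axons make the optic nerve. Growth cones, the motile tips of growing axons, carry membrane-bound proteins that couple calcium and protein kinase C signals to the cytoskeleton. Marcks, Marcksl1, Gap43 and Basp1 encode such proteins, which bind acidic membrane lipids and are protein kinase C substrates. The stathmins Stmn1, Stmn2 and Stmn3 bind tubulin and make microtubules less stable. Stmn2 and Stmn3 are the neuronal forms, held on membranes by fatty acyl anchors.

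The promoter windows of Sox4, Sox11 and Marcksl1 are shown because, for these genes, the brightest probe set was lower in every 8-month retina than in every 3-month one. Windows of 300 bases, from 250 before to 50 after the gene start, came from RefSeq on build GRCm38.p6, where 6 of the 10 genes had an entry (also Sox12, Basp1 and Stmn3). Capitals mark the GC box GGGCGG on either strand, which binds Sp-family factors. The Sox core ACAAAG and the TATA box TATAAA were searched on both strands as well. The 3 windows lie at chr13:28953650-28953949 (minus strand) for Sox4, at chr12:27342669-27342968 (minus strand) for Sox11 and at chr4:129513331-129513630 (plus strand) for Marcksl1, each printed from its own 5′ end.
Sox4: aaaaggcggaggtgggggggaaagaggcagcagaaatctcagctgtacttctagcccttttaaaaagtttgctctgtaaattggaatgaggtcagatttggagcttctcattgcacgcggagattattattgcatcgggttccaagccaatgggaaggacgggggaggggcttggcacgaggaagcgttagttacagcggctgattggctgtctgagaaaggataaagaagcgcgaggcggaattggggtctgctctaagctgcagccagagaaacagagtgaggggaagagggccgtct
Sox11: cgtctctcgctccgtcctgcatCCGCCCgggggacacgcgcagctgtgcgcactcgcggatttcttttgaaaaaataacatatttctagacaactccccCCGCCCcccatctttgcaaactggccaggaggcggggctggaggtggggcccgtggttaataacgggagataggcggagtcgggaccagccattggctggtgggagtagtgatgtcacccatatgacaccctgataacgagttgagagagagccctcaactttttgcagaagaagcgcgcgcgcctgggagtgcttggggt
Marcksl1: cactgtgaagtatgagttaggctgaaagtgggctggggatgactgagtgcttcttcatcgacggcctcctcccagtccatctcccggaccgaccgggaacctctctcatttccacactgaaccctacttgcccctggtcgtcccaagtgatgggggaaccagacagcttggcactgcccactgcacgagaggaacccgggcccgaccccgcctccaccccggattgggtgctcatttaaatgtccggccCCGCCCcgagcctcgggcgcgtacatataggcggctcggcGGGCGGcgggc
The GC box occurred 2 times in the Sox11 window, 2 times in the Marcksl1 window and 0 times in the Sox4 window, and 35.7% of all 32851 windows held it. The Sox core was in 0 of the 3 printed windows and in 18.7% of all windows, and the TATA box in 0 of the 3 and in 13.6% of all. Among the member windows not printed, those of Sox12 and Basp1 held 4 GC boxes each and that of Stmn3 held 1 Sox core. GC made up 52.0% of the Sox4 window, 58.7% of the Sox11 window and 63.7% of the Marcksl1 window, against a median of 52.7% over all windows. The matches describe letters in these windows, and no binding was measured.

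No member passed the test between the ages. The test was limma's moderated linear model on the deposited log2 values, adjusted by Benjamini-Hochberg over the 20973 probe sets that read 4 or more in at least 3 of the 6 retinas, and it called 0.00477% of them, 1 probe set of another gene. Adjusted p of the 24 tested member probe sets lay between 0.186 and 0.954 (limma). At an unadjusted limma p under 0.05, 8 member probe sets stood out. Of these, 5 were lower at 8 months, from Sox11, Marcksl1 and Sox4, against a background of 10.3% of all probe sets tested, and 3 were higher, all from Marcks, against 4.63%. Probe sets annotated to the same gene are not independent, so these counts are of 4 genes. The 3 8-month values lay all below the 3 3-month values in 5 probe sets, where 14.9% of all did so, and all above in 4, where 6.89% did (21.8% of all in either direction). The median log2 difference was -0.0054 over the 24 members and -0.04 over all probe sets tested. The balance of the background depended on the scaling of the arrays. Of all probe sets at an unadjusted p under 0.05, 68.9% were lower as deposited, 50.3% after quantile normalization, 48.8% after cyclic loess, 76.4% after centring on the median of all probe sets and 31.8% after centring on that of the probe sets tested. With 3 arrays per age, an exact two-sided permutation test of a single value cannot give a p under 0.1.

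Some genes of retinal cell types, among them the following, were bright in every array. Gnat2, the cone transducin, read between 9.40 and 9.49 at 8 months and between 9.76 and 9.97 at 3 months, Glul of Müller glia between 13.48 and 13.51 against 13.22 and 13.46, and Gad1 of amacrine cells between 11.26 and 11.40 against 11.14 and 11.26 (log2). Arrays correlated at 0.987 to 0.994 within an age and at 0.985 to 0.994 across ages, over probe sets. Of 9 photoreceptor genes tested, each by its brightest tested probe set, 7 were lower at 8 months. Of all probe sets tested, 59.4% were lower. At an unadjusted limma p under 0.05, 3 of the 9 were lower and 0 higher, beside 10.3% and 4.63% of all. These were Gnat2, Prph2 and Pde6b, at -0.44 ± 0.09, -0.53 ± 0.16 and -0.20 ± 0.08 (log2, SE; limma, adjusted p between 0.186 and 0.304). In 4 of the 9, all 8-month retinas lay below all 3-month ones, beside 14.9% of all. Of 6 genes of the pigment epithelium and choroid, 3 were lower. The mean log2 level of these 6 varied widely, from 4.79 to 6.27 at 8 months and from 4.42 to 6.72 at 3 months. Lens crystallins were highest in 8-month retina 1 and 3-month retina 3, the crystallin-rich retinas of the alternatives. The mean of 10 lens genes was 8.53, 4.05 and 4.41 in 8-month retinas 1 to 3. In 3-month retinas 1 to 3 it was 5.92, 4.49 and 9.68 (log2). Leaving out both crystallin-rich retinas kept 3-month retina 1, whose lens mean lay between theirs and those of the others. Cryba1 read 12.53, 3.93 and 5.02 in 8-month retinas 1 to 3, against 8.90, 6.06 and 13.53 in 3-month retinas 1 to 3. The signal ratio of the 3′ and 5′ ends of the Gapdh control, which reflects RNA integrity, was 0.76 to 0.81 at 8 months. It was 0.71 to 0.75 at 3 months (log2), lower in every retina than at 8 months. That of the actin control was 1.71 to 1.84 at 8 months and 1.62 to 1.87 at 3 months, and its ages overlapped. Right eyes occurred at 8 months alone, in retinas 2 and 3. The part of eye side, lens material and RNA integrity in the results below was not tested beyond the alternatives given.

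**Figure D1:**
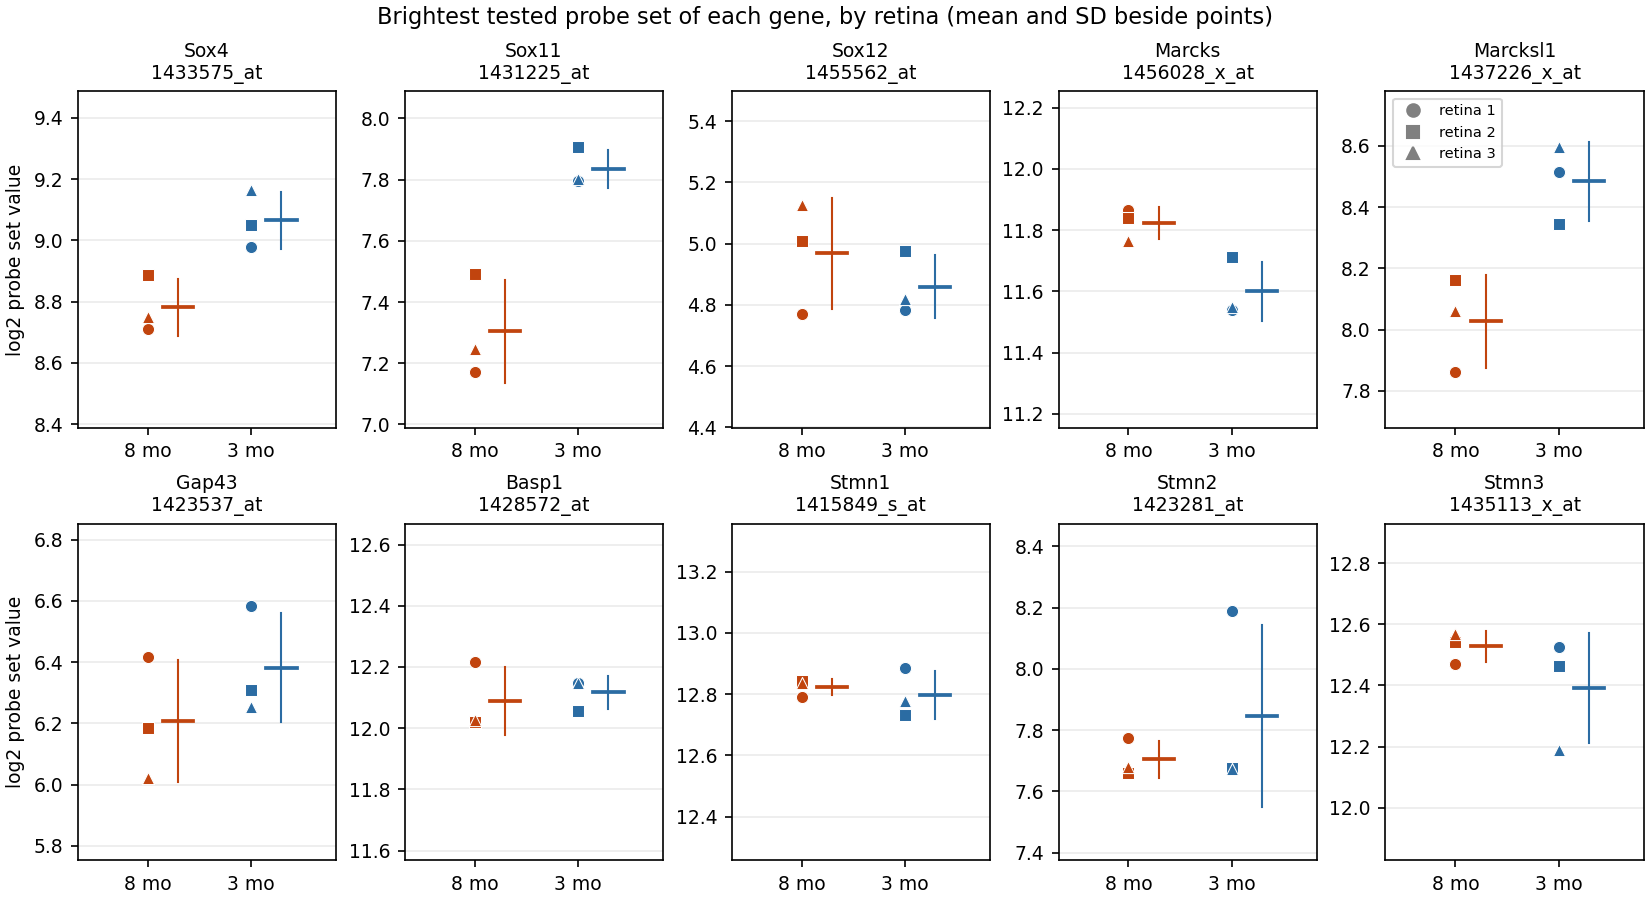
Log2 value of the brightest tested probe set of each gene (vertical axis, spanning the same 1.1 log2 units in every panel) in the 3 retinas at 8 months and the 3 at 3 months; bars beside the points are mean and SD. Sox4, Sox11 and Marcksl1 are lower in every 8-month retina and Marcks is higher, while the ages of the other 6 genes overlap.

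Sox11, on chromosome 12 (27334268 to 27342718, GRCm38.p6), had the smallest p of all members. Its brightest probe set, 1431225_at, read 7.17, 7.49 and 7.25 in 8-month retinas 1 to 3, against 7.79, 7.90 and 7.80 in 3-month retinas 1 to 3 (log2). All 8-month retinas were lower, and the nearest values of the ages were 0.30 apart. The log2 difference was -0.53 ± 0.10 (SE, n = 3 per age), a change of -30.8% in signal, ranked 158 of 20973 by p (limma, unadjusted p = 0.00141, adjusted p = 0.186). Under all 17 alternatives run on it, it remained lower, by -0.66 to -0.45, with an unadjusted limma p of 0.0148 or less.

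The other Sox11 probe sets did not show a difference of that size. For 1429051_s_at, a probe set whose probes can match further transcripts, the values were 5.89, 5.72 and 5.95 at 8 months and 6.26, 6.21 and 5.95 at 3 months. Its ages touched, because 8-month retina 3 and 3-month retina 3 were nearly equal, and its log2 difference was -0.28 ± 0.11 (SE; limma, unadjusted p = 0.0422, adjusted p = 0.322). The remaining pair did not separate the ages. Probe set 1453002_at differed by -0.03 ± 0.12 and 1429372_at by -0.06 ± 0.16 (log2, SE), with overlapping ages. Their 95% intervals were -0.32 to 0.27 and -0.45 to 0.32 (limma). The sign of 1453002_at turned after quantile normalization, cyclic loess and centring on the probe sets tested, and that of 1429372_at after the last of these. Averaged over its 4 tested probe sets, Sox11 differed by -0.23 with a 95% interval of -0.46 to 0.01 (log2; limma over 11219 gene means, unadjusted p = 0.0584, adjusted p = 0.341). Where these probe sets lie along the transcript was not analysed here.

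**Figure D2:**
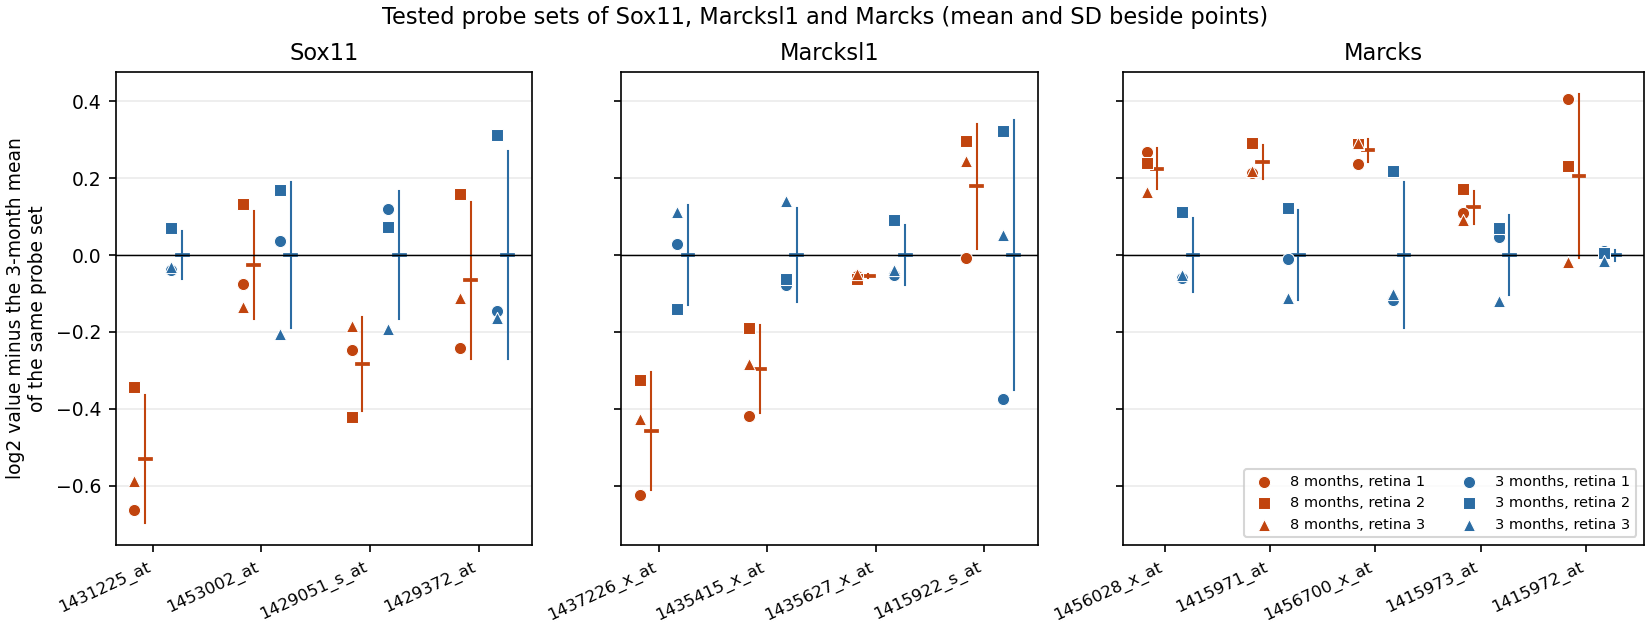
Values of every tested probe set of Sox11, Marcksl1 and Marcks in each retina, as log2 value minus the 3-month mean of that probe set; symbols mark the retina number and bars are mean and SD. Of the 4 Sox11 probe sets 1 is clear of overlap, of the 4 Marcksl1 probe sets 2 are, and of the 5 Marcks probe sets 4 are, in the opposite direction.

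Sox4, which acts beside Sox11 in forming ganglion cells, lies on chromosome 13 (28948919 to 28953699). It was read by 1433575_at alone, at 8.71, 8.89 and 8.75 in 8-month retinas 1 to 3, against 8.98, 9.05 and 9.16 in 3-month retinas 1 to 3. The 8-month retinas were all lower, by at least 0.09 between the nearest values. The log2 difference was -0.28 ± 0.09 (SE), a change of -17.8% in signal (limma, unadjusted p = 0.0167, adjusted p = 0.271). Without both crystallin-rich retinas, which leaves 2 per age, it was -0.20 (limma, unadjusted p = 0.136, adjusted p = 0.704). The other 7 Sox4 probe sets stayed below the filter. The 12 dim member probe sets read between 2.27 and 3.60 in every retina, and 8 of them were lower and 4 higher at 8 months, with differences of -0.145 to 0.0651.

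Sox12, the third SoxC gene, on chromosome 2 (152393611 to 152398046), was dim. Its brighter probe set 1455562_at read 4.77, 5.01 and 5.13 in 8-month retinas 1 to 3, against 4.78, 4.98 and 4.82 in 3-month retinas 1 to 3. The ages overlapped, since 8-month retina 1 was the lowest of all 6, while 8-month retinas 2 and 3 lay above every 3-month retina. The log2 difference was 0.11 ± 0.11 (SE; limma, adjusted p = 0.666), and it turned to -0.09 with eye side as a covariate. Probe set 1439754_at, at 3.87, 4.25 and 4.17 in 8-month retinas and 3.53, 4.15 and 3.84 in 3-month retinas, differed by 0.26 ± 0.17 (SE; limma, adjusted p = 0.509). That value was 0.10 without 3-month retina 1, 0.41 without 3-month retina 2 and 0.03 with eye side as a covariate. For 1455562_at, leaving out 1 retina gave 0.03 (without 8-month retina 3) to 0.21 (without 8-month retina 1). Both intervals include 0, so neither a difference nor its absence is shown.

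Marcksl1, on chromosome 4 (129513581 to 129515981), encodes a smaller relative of Marcks that binds actin and calmodulin. All 4 of its probe sets are of the less specific kind, marked _x_at or _s_at, and they disagreed. Probe set 1437226_x_at read 7.86, 8.16 and 8.06 in 8-month retinas 1 to 3, against 8.51, 8.34 and 8.60 in 3-month retinas 1 to 3. All 8-month retinas were lower, with 0.18 between the nearest values, and the log2 difference was -0.46 ± 0.11 (SE), a change of -27.2% in signal (limma, unadjusted p = 0.00453, adjusted p = 0.223). Probe set 1435415_x_at read 7.80, 8.03 and 7.93 in 8-month retinas, against 8.14, 8.16 and 8.36 in 3-month retinas, a log2 difference of -0.30 ± 0.10 (SE; limma, unadjusted p = 0.0215, adjusted p = 0.281). These 2 probe sets thus separated the ages in the same direction.

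The other Marcksl1 probe sets did not separate the ages. Probe set 1435627_x_at varied little, at 7.19, 7.19 and 7.20 in 8-month retinas and 7.19, 7.34 and 7.21 in 3-month retinas. Its difference of -0.05 ± 0.08 (log2, SE) changed sign after quantile normalization, cyclic loess and centring on the probe sets tested. Probe set 1415922_s_at read 6.11, 6.41 and 6.36 at 8 months, against 5.74, 6.43 and 6.17 at 3 months, with a log2 difference of 0.18 ± 0.18 (SE; limma, adjusted p = 0.657). Its lowest value of all was that of 3-month retina 1, without which the difference was -0.01, against 0.34 without 3-month retina 2. Averaged over the 4 probe sets, Marcksl1 differed by -0.16 with a 95% interval of -0.37 to 0.05 (log2; limma over gene means, adjusted p = 0.437).

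Marcks, on chromosome 10 (37133243 to 37138926), encodes the protein kinase C substrate that tethers actin and lipids at the membrane and leaves the membrane when phosphorylated. It stood on the other side, with all 5 tested probe sets higher at 8 months, by 0.12 to 0.27 as deposited (log2). The alternatives run on them kept that sign, with values of 0.065 to 0.407. Probe set 1456028_x_at read 11.87, 11.84 and 11.76 in 8-month retinas 1 to 3, against 11.54, 11.71 and 11.55 in 3-month retinas 1 to 3. The 8-month retinas were all higher, with 0.05 between the nearest values, and the log2 difference was 0.22 ± 0.09 (SE), a 16.8% higher signal (limma, unadjusted p = 0.0333, adjusted p = 0.305). Probe set 1415971_at, of the specific kind, read 11.65, 11.73 and 11.65 in 8-month retinas, against 11.42, 11.55 and 11.32 in 3-month retinas. Its log2 difference was 0.24 ± 0.09 (SE; limma, unadjusted p = 0.0295, adjusted p = 0.299).

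Of the other Marcks probe sets, 1456700_x_at and 1415973_at also had every 8-month retina above every 3-month one. They differed by 0.27 ± 0.11 and 0.12 ± 0.09 (log2, SE; limma, adjusted p = 0.319 and 0.513). The difference of 1415973_at was 0.065 without 3-month retina 3. In 1415972_at the ages overlapped. It read 10.02, 9.85 and 9.60 in 8-month retinas 1 to 3, against 9.63, 9.62 and 9.60 in 3-month retinas, and 8-month retina 3 was the lowest of all 6. Its difference of 0.21 ± 0.12 (log2, SE) was 0.11 without 8-month retina 1 and 0.32 without 8-month retina 3. Averaged over the 5 probe sets, Marcks differed by 0.21 with a 95% interval of 0.03 to 0.40 (log2; limma over gene means, unadjusted p = 0.0314, adjusted p = 0.282).

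Marcks is also made by glia and phagocytes. Of the 12 microglia and macrophage markers listed, 4 were bright enough to test. None passed (limma). All 4 were higher at 8 months, 3 of them at an unadjusted p under 0.05, where 4.63% of all probe sets tested were. Their mean log2 level was 6.62 to 6.76 at 8 months, against 6.12 to 6.29 at 3 months. Tyrobp, a signalling adaptor of myeloid cells, read 4.65, 4.85 and 4.73 in 8-month retinas, against 4.26, 4.47 and 4.43 in 3-month retinas, and Aif1, a defining marker, lay below the filter at 2.62 to 3.03. The colony-stimulating factor receptor gene Csf1r differed by 0.08 ± 0.24 (log2, SE), with overlapping ages. Of 10 markers of Müller glia and astrocytes, none passed, and 8 were higher and 2 lower, where 59.4% of all probe sets tested were lower. Of the higher ones, 2 had an unadjusted limma p under 0.05, beside the same 4.63% of all. The mean log2 level of the 10 was 9.95 to 9.98 at 8 months and 9.71 to 9.84 at 3 months. Gfap, the filament gene of reactive glia, read 4.87, 5.83 and 5.75 in 8-month retinas, against 4.25, 4.72 and 4.27 in 3-month retinas, a difference of 1.07 ± 0.27 (SE; limma, adjusted p = 0.223). Amacrine cell markers, which are neuronal, stood likewise. Of 8 tested, none passed, and 5 were higher and 3 lower. Of the higher ones, 2 had an unadjusted limma p under 0.05, beside 4.63% of all. They were Pax6, at 0.23 ± 0.07, and Tfap2b, at 0.26 ± 0.09 (log2, SE; limma, adjusted p = 0.2685 and 0.278). The part of any of these cell types in the Marcks values was not tested.

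Within each retina, Marcks was set against Marcksl1, and other relatives against each other, as the change of their log2 difference between the ages. The 6 pairs were chosen after their values were seen, so the changes are given with no test. The brightest probe sets of Marcks and Marcksl1 diverged by 0.68 (log2). Relative to the 3-month mean, Marcks minus Marcksl1 was 0.89, 0.56 and 0.59 in 8-month retinas 1 to 3, against -0.09, 0.25 and -0.16 in 3-month retinas 1 to 3. The ages did not overlap, which follows from the opposite separation of both genes given above. Sox12 against Sox11 changed by 0.64 and Sox4 against Sox11 by 0.25, both without overlap of the ages. Both rest on Sox11 probe set 1431225_at, which differed most of its 4 tested ones. Averaged over tested probe sets, Sox11 differed by -0.23, Sox4 by -0.28 and Sox12 by 0.18, so Sox4 against Sox11 turned its sign. On the same averages Marcks differed by 0.21 and Marcksl1 by -0.16, which lie closer together than their brightest probe sets. The pairs Stmn3 and Stmn2, Stmn1 and Stmn2, and Basp1 and Gap43 overlapped, with changes of 0.28, 0.17 and 0.15.

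**Figure D3:**
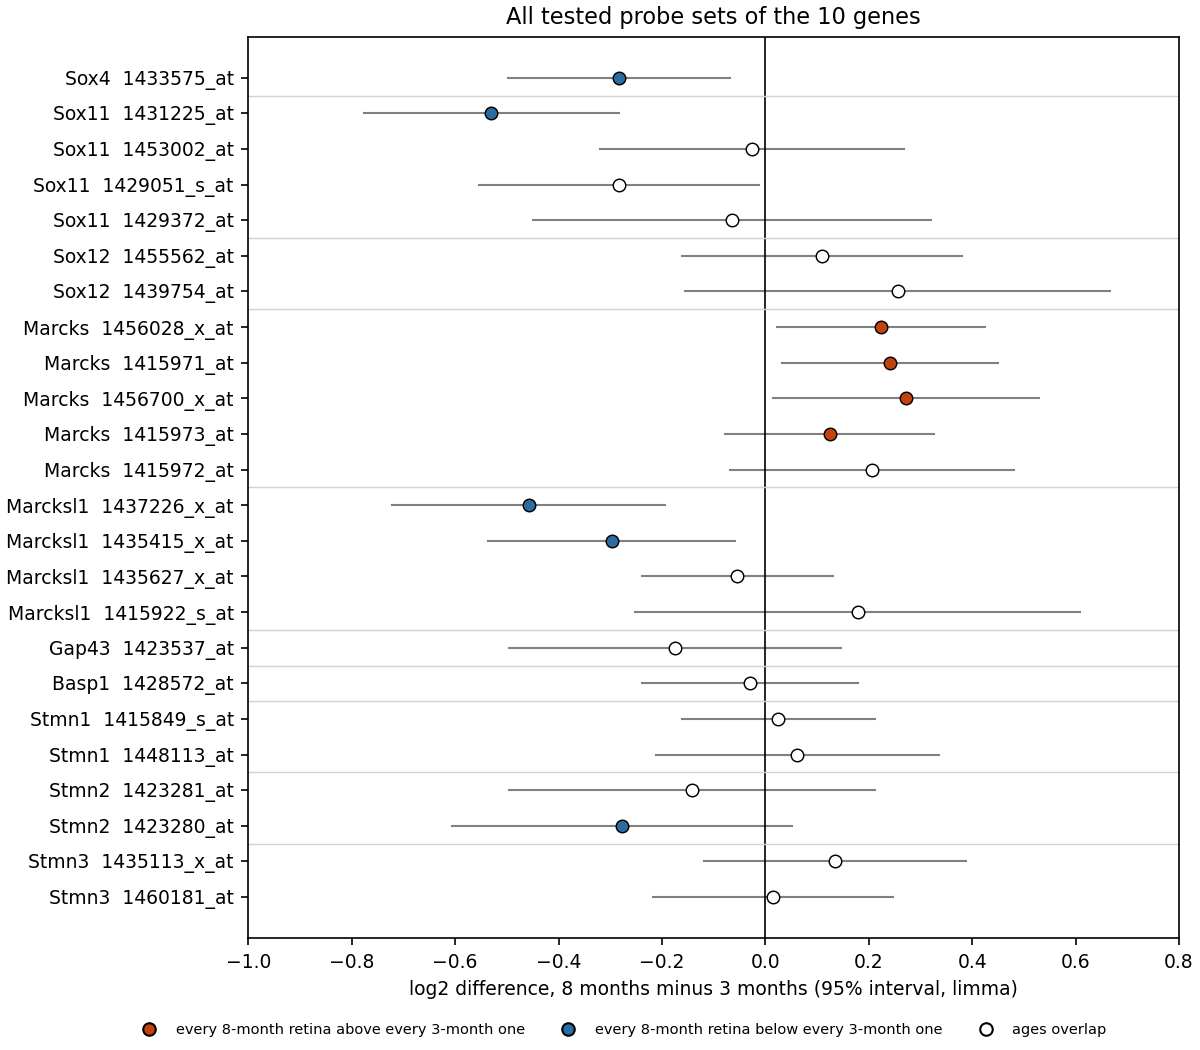
Log2 difference, 8 months minus 3 months, of the 24 tested probe sets, with 95% intervals from limma; filled points mark probe sets whose 3 8-month and 3 3-month values do not overlap. The 5 blue points belong to Sox4, Sox11, Marcksl1 and Stmn2 and the 4 red points to Marcks, and all 24 intervals lie inside a 2-fold change either way.

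Gap43, on chromosome 16 (42248552 to 42340651), encodes the growth-associated protein used as a classic label of growing and regrowing axons. Its 1 probe set, 1423537_at, read 6.42, 6.18 and 6.02 in 8-month retinas 1 to 3, against 6.58, 6.31 and 6.25 in 3-month retinas 1 to 3. The ages overlapped, with 8-month retina 1 above 2 of the 3-month retinas. The log2 difference was -0.17 with a 95% interval of -0.50 to 0.15 (limma, unadjusted p = 0.239, adjusted p = 0.559). It was -0.34 without both crystallin-rich retinas and 0.04 with eye side as a covariate, neither of which passed. Single retinas moved it too, to -0.07 without 3-month retina 1, -0.08 without 8-month retina 3 and -0.28 without 8-month retina 1.

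Basp1, on chromosome 15 (25363277 to 25413764), encodes a membrane protein that acts beside Gap43 in axon growth. Probe set 1428572_at read 12.22, 12.02 and 12.03 in 8-month retinas 1 to 3, against 12.15, 12.06 and 12.15 in 3-month retinas 1 to 3. The values interleaved, the highest and the lowest both being 8-month retinas. The log2 difference was -0.03, with a 95% interval of -0.24 to 0.18 (limma, adjusted p = 0.892), and its sign turned after centring on the probe sets tested.

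Among the stathmins, Stmn2, on chromosome 3 (8509527 to 8561604), is the form of growing neurites. Probe set 1423280_at read 7.53, 7.63 and 7.63 in 8-month retinas 1 to 3, against 8.18, 7.66 and 7.79 in 3-month retinas 1 to 3. All 8-month retinas were lower, but the nearest values were only 0.02 apart, and the log2 difference was -0.28 ± 0.14 (SE; limma, unadjusted p = 0.0869, adjusted p = 0.396). Probe set 1423281_at read 7.77, 7.66 and 7.68 in 8-month retinas, against 8.19, 7.68 and 7.67 in 3-month retinas, a log2 difference of -0.14 ± 0.15 (SE; limma, adjusted p = 0.667). In both probe sets 3-month retina 1 stood far above the other 5 retinas. Without it the differences were -0.13 and 0.03. That of 1423281_at was -0.23 without 3-month retina 2 or 3.

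The same retina was high in markers of ganglion cells. Of 14 tested markers, 9 were highest in 3-month retina 1. So were 10 of 35 other growth-cone genes, 4 of 9 photoreceptor genes, 3 of 8 amacrine cell markers and 1 of 10 Müller glia and astrocyte markers. The share over all probe sets was not counted. The mean of the 14 was 8.54, 8.62 and 8.57 in 8-month retinas 1 to 3, against 8.80, 8.69 and 8.61 in 3-month retinas 1 to 3 (log2). Of the 14, 11 were lower at 8 months, where 59.4% of all probe sets tested were lower. Nefl, the light neurofilament gene, read between 10.82 and 10.96 in 8-month retinas, against 10.91 to 11.18 in 3-month retinas. Gap43 was also highest in that retina, as were the brightest probe sets of Stmn1 and Stmn2, 3 of the 10 members. At an unadjusted limma p under 0.05, 2 of the 14 were lower and 0 higher, beside 10.3% and 4.63% of all probe sets tested. These were Tubb3, at -0.57 ± 0.12, and Pou4f1, at -0.26 ± 0.09 (log2, SE; limma, adjusted p = 0.206 and 0.297). Thy1 differed by -0.12 ± 0.12 and Rbpms by 0.05 ± 0.11 (log2, SE; limma, adjusted p = 0.648 and 0.866). In 3 of the 14, all 8-month retinas lay below all 3-month ones, beside 14.9% of all. The part of ganglion cell or photoreceptor content in the Stmn2, Gap43, Sox4, Sox11 and Marcksl1 values was not tested.

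**Figure D4:**
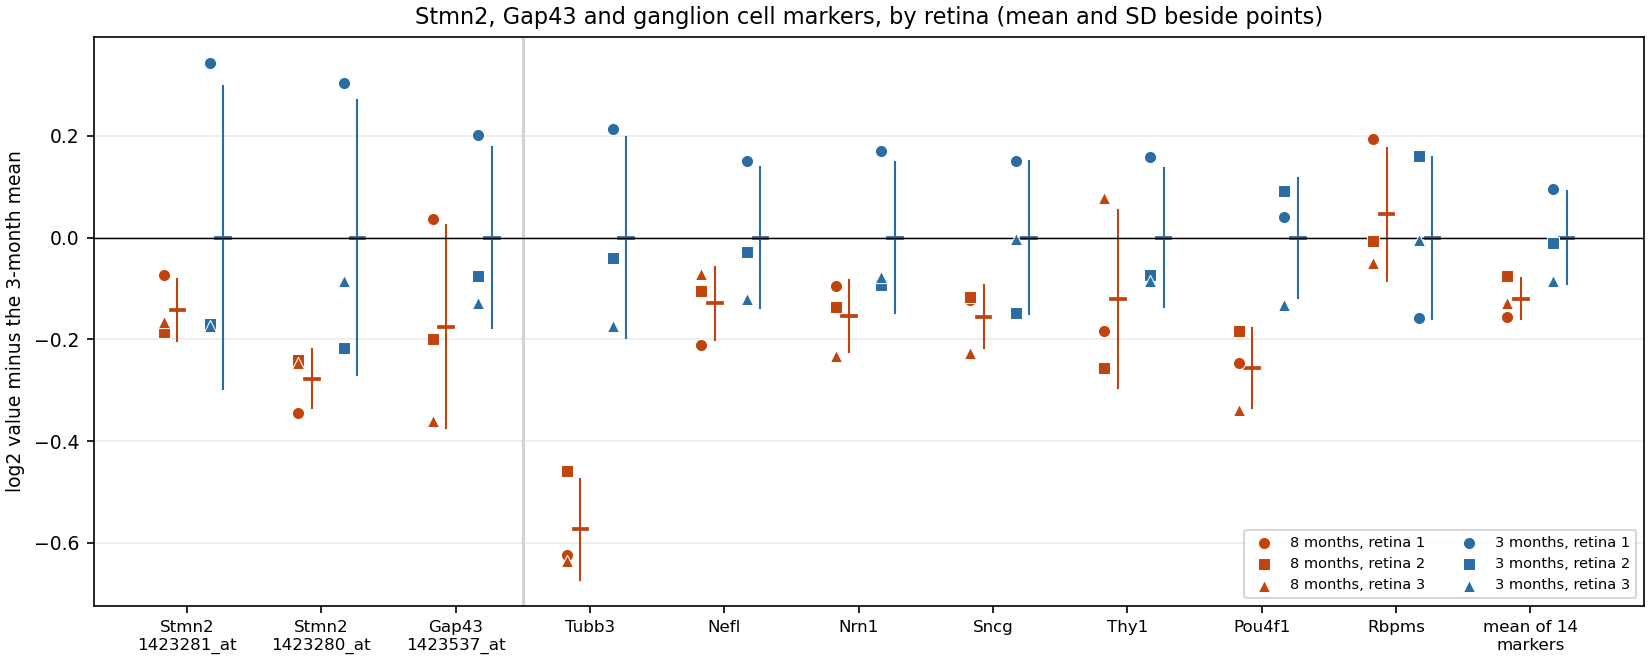
Stmn2 (both probe sets), Gap43 and 7 ganglion cell markers with the mean of all 14, by retina, as log2 value minus the 3-month mean; bars are mean and SD. 3-month retina 1 is the highest of the 6 in Stmn2, Gap43, Tubb3, Nefl, Nrn1, Sncg, Thy1 and the marker mean, and not in Pou4f1 or Rbpms.

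Stmn1 and Stmn3 did not separate the ages, and the 95% intervals of their probe sets include 0. Stmn1, on chromosome 4 (134468320 to 134473843), encodes the stathmin of dividing cells and young neurons. Its probe set 1415849_s_at read 12.79, 12.84 and 12.84 in 8-month retinas 1 to 3, against 12.88, 12.73 and 12.78 in 3-month retinas 1 to 3. Its log2 difference was 0.03 with a 95% interval of -0.16 to 0.21, and that of 1448113_at was 0.06 with an interval of -0.21 to 0.34 (limma, adjusted p = 0.895 and 0.818). Of 8 genes of dividing cells listed, 3 were tested and 0 passed (limma), and Mki67, a defining marker, lay below the filter at 2.93 to 3.48. The mean log2 level of the 3 was 7.16 to 7.20 at 8 months, against 6.77 to 6.91 at 3 months. Bub1b, a mitotic checkpoint kinase gene, read 6.03, 5.60 and 5.80 in 8-month retinas, against 4.86, 4.90 and 4.76 in 3-month retinas, without overlap, a difference of 0.97 ± 0.12 (SE; limma, unadjusted p = 8.69e-05, adjusted p = 0.177). Ccna2, a cyclin gene, and Pcna, the replication clamp gene, differed by 0.09 ± 0.14 and -0.10 ± 0.13, with overlapping ages. The part of dividing cells in the Stmn1 values was not tested.

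Stmn3, on chromosome 2 (181306459 to 181314500), read 12.47, 12.54 and 12.57 in 8-month retinas 1 to 3 by 1435113_x_at, against 12.53, 12.46 and 12.19 in 3-month retinas 1 to 3. The low value of 3-month retina 3 set most of its log2 difference of 0.13 ± 0.11 (SE; limma, adjusted p = 0.568), which was 0.03 without that retina. The 95% interval with all 6 retinas was -0.12 to 0.39. Probe set 1460181_at differed by 0.01 ± 0.10 (SE), and its sign turned after centring on the median of all probe sets. Over the 24 member probe sets, 19 had a 95% interval inside 1.5-fold either way.

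Genes tied to SoxC factors as targets or partners were looked up from a fixed list of 20, of which 13 were tested. In this and the other lists a gene was counted by its brightest tested probe set, while the background shares are over probe sets. With probe sets averaged per gene, 1312 of 11219 genes were lower and 416 higher at an unadjusted limma p under 0.05. None of the 13 passed over all probe sets in either direction (limma). At an unadjusted p under 0.05 there were 4 lower and 0 higher, where 10.3% of all probe sets tested were lower and 4.63% higher. The median log2 difference was -0.07 beside -0.04 over all. The 4 were Tubb3, a neuronal tubulin gene and known Sox11 target, at -0.57 ± 0.12, Mex3a, an RNA-binding protein gene, at -0.51 ± 0.16, Plxna2, a semaphorin co-receptor gene, at -0.30 ± 0.08, and the ganglion cell factor gene Pou4f1 at -0.26 ± 0.09 (SE; limma, adjusted p between 0.206 and 0.297). Tubb3 and Pou4f1 are also on the list of ganglion cell markers given above. Plxna2 read 7.12, 7.20 and 7.09 in 8-month retinas, against 7.39, 7.39 and 7.53 in 3-month retinas. Of 16 other Sox genes, 6 were tested and 0 reached an unadjusted p under 0.05. Sox2 of Müller glia differed by 0.13 ± 0.11, Sox8 by -0.12 ± 0.13, Sox5 by 0.07 ± 0.11 and Sox30 by 0.28 ± 0.24 (log2, SE).

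Of 38 other growth-cone genes, 35 were tested and 0 passed. Those below 0.05 before adjustment (limma) were 2 lower genes, Dclk1, a microtubule-binding kinase gene, at -0.21 ± 0.08, and the stathmin relative Stmn4 at -0.31 ± 0.12, and 0 higher genes, against the same 10.3% and 4.63% of all (log2, SE; adjusted p = 0.297 and 0.318). Enah and Ablim1, both actin regulators, differed by 0.28 ± 0.13 and 0.22 ± 0.11. The median of the list was -0.03. Of 31 genes of axon injury and regrowth, 20 were tested and 0 passed, with 2 lower and 1 higher at an unadjusted p under 0.05 (10.3% and 4.63% over all) and a median of -0.01. The lower ones were Mycn, a growth-promoting transcription factor gene, at -0.62 ± 0.18, and the neuropeptide gene Vip at -0.49 ± 0.19. The higher one was Socs3, a brake on cytokine signalling, at 0.64 ± 0.22, while the neurotrophin receptor gene Ngfr differed by 0.29 ± 0.17 (log2, SE; limma, adjusted p from 0.25 to 0.447).

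Kinases and other enzymes and partners that act on these growth-cone proteins numbered 28 in the list, of which 20 were tested and 0 passed. At an unadjusted limma p under 0.05, 3 were lower and 0 higher, beside 10.3% and 4.63% of all, and the list's median log2 difference was -0.06. Cdk5, a neuronal kinase, read 6.08, 6.10 and 5.97 in 8-month retinas, against 6.31, 6.36 and 6.39 in 3-month retinas, a difference of -0.31 ± 0.08 (SE; adjusted p = 0.223). Camk4, a calmodulin-dependent kinase gene, differed by -0.65 ± 0.20, and Nmt1, whose product attaches the myristoyl anchor of Marcks and Basp1, by -0.19 ± 0.08. Mapk10, a neuronal Jun kinase gene, differed by 0.25 ± 0.13 (log2, SE).

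The genes whose brightest probe sets followed each member most closely over the 6 retinas were named as a description, because with 6 points, 3 per age, many genes correlate highly. For Sox11 they were Dclk1, Ccdc112 and Rxra, at Pearson r of 0.992, 0.987 and 0.985, and 50 of 11218 other genes exceeded 0.95. For Marcksl1 they were Vhl, Smim19 and Urgcp, at 0.994, 0.989 and 0.989, with 126 genes above 0.95. For Stmn2 they were Gm28523, Pdia6 and Rimkla, at 0.996, 0.995 and 0.995, with 97 above 0.95. For Gap43 they were Dram2, Kmt5b and A930003A15Rik, at 0.985, 0.977 and 0.975, with 16 above 0.95. All points share the arrays and their scaling.

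**Figure D5:**
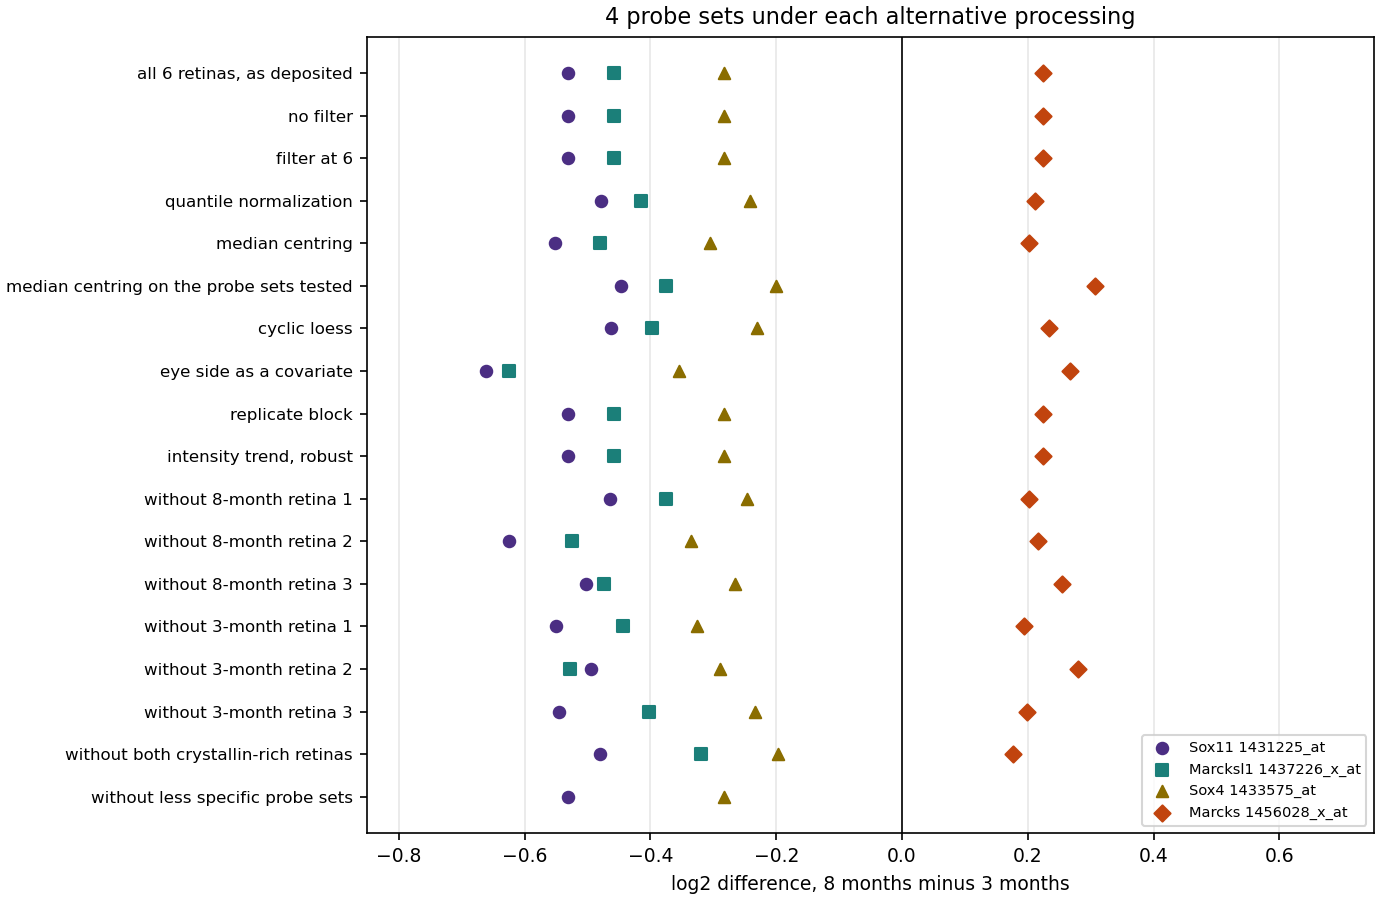
Log2 difference, 8 months minus 3 months, of the brightest probe sets of Sox11, Marcksl1, Sox4 and Marcks under the deposited scaling with all 6 retinas (top) and each alternative. Sox11 spans -0.66 to -0.45, Marcksl1 -0.62 to -0.32, Sox4 -0.355 to -0.20 and Marcks 0.18 to 0.31. The less specific probe sets of Marcksl1 and Marcks have no point in the last line.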

How the data were processed

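Total RNA of 6 retinas was amplified, labelled with biotin and hybridised to Affymetrix mouse arrays, 1 retina per array, per the labels' protocols. The authors deposited log2 values per probe set, and their processing notes list GCRMA 1.1.0 and R 1.9.0. Its options are not stated in what was read here. GCRMA presses weak signals to a floor, which understates differences of dim probe sets.

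Leaving out 64 control rows of 45101, a probe set entered the test where at least 3 of its 6 values were 4 or more, which kept 20973, or 46.6%. The platform annotation gave 1 symbol for 34945 probe sets, several for 932 and none for 9160. The 8-month minus 3-month contrast was fitted by limma 3.58.1 (R 4.3.3; lmFit, then eBayes), two-sided, with Benjamini-Hochberg adjustment over all tested probe sets and a threshold of 0.05. The model was tested on simulated data with known differences. The number of arrays limits the precision.

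The members, the gene lists and the tests were chosen with earlier results of these data known. Named were all members, up to 4 genes of smallest p per list, fixed markers, and the 3 genes most correlated with each of Sox11, Marcksl1, Gap43 and Stmn2. Pairs of relatives, picked after their values were seen, were described without a test. Same-numbered retinas of the ages come from different animals, and their deviations correlated at -0.141, 0.0638 and -0.283, so the numbers do not pair them. Alternatives varied the filter, the scaling, covariates, the variance model, the retinas and the probe sets used. One of them, centring on the probe sets tested, was added after seeing the data.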

Additional observations from a re-analysis of the deposited data

How the results depend on the processing

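Over 17 alternatives, the 24 member probe sets gave 395 values. None passed (smallest limma adjusted p = 0.102), 366 kept their direction and 29 turned, in 11 probe sets. The largest in size was -0.102 (log2, eye side, Stmn1). The brightest probe sets of Sox4, Sox11, Marcks and Marcksl1 did not turn. With eye side as a covariate, the turned values were -0.00611 for Stmn1 1415849_s_at, -0.102 for Stmn1 1448113_at, -0.00681 for Marcksl1 1415922_s_at, 0.0357 for Gap43, 0.0996 for Basp1, -0.089 for Sox12 1455562_at and -0.0399 for Stmn3 1460181_at. Centring on the probe sets tested gave 0.054 for Basp1, 0.0182 for Sox11 1429372_at, 0.0286 for Marcksl1 1435627_x_at and 0.0574 for Sox11 1453002_at. Quantile normalization gave 0.0184 and 0.0563 and cyclic loess 0.0157 and 0.0425 for the last 2 of these. Centring on the median of all probe sets gave -0.007002 for Stmn3 1460181_at. Leaving out 1 retina in turn gave ranges of -0.00796 to 0.0685 for Stmn1 1415849_s_at, -0.00154 to 0.15 for Stmn1 1448113_at, -0.00849 to 0.339 for Marcksl1 1415922_s_at, -0.228 to 0.0302 for Stmn2 1423281_at, -0.0934 to 0.00424 for Basp1, -0.177 to 0.0907 for Sox11 1429372_at, -0.129 to 0.0589 for Sox11 1453002_at and -0.0364 to 0.101 for Stmn3 1460181_at. The cause was not tested.

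The count of probe sets called, 1 as deposited, was 0 with no filter, with eye side, with the replicate block and without both crystallin-rich retinas, 2 with the filter at 6, quantile normalization, cyclic loess, centring on the probe sets tested and gene means, 3 with an intensity trend, and 0 without any 1 retina. Probe sets at an unadjusted p under 0.05 numbered 3126, against 2059 with eye side, 1567 without both crystallin-rich retinas, 1728 genes with gene means and 1932 to 4109 without 1 retina (2061 without 8-month retina 1, 1932 without 8-month retina 2). Member probe sets lower at that p, 5 as deposited, were 3 after quantile normalization, cyclic loess and without both crystallin-rich retinas, 2 after centring on the probe sets tested and without less specific probe sets, 1 of 10 genes with gene means, 4 with the replicate block and 2 to 5 without 1 retina. They were 2 without 8-month retina 1 and 3 without 3-month retina 3. Those higher, 3 as deposited, were 1 after centring on all probe sets, with eye side, without less specific probe sets and with gene means, 2 with the replicate block, 0 without both crystallin-rich retinas and 0 to 4 without 1 retina. The 0 was reached without 8-month retina 1 or 2 or 3-month retina 1 or 3. Members lower without overlap, 5 as deposited, were 3 after centring on the probe sets tested and without less specific probe sets, 8 without both crystallin-rich retinas, 2 with gene means and 5 to 7 without 1 retina. Those higher without overlap, 4 as deposited, were 7 after that centring and without both crystallin-rich retinas, 2 without less specific probe sets, 1 with gene means and 4 to 7 without 1 retina, the 7 without 8-month retina 1 or 3-month retina 1. Fewer retinas or probe sets make overlap rarer or the count smaller by construction. The replicate block changed no call of a member.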
